A study of Mus musculus with 12 samples.

Results

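Globins and other red cell transcripts were followed in sorted hippocampal cells of mice whose astrocytes carried additional adenosine A2A receptor. The 7 genes are the adult beta globins Hbb-bs and Hbb-bt, the adult alpha globins Hba-a1 and Hba-a2, and the red cell genes Alas2, Bpgm and Slc4a1. They were chosen by symbol because their counts fell in the CD11b libraries of AAV-A2A mice, so the values of that contrast are given as a description without a test. All 7 had a row in both count tables, among 27866 genes listed for the ACSA-2 libraries and 30359 listed for the CD11b libraries, of which 25442 were in both.

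RNA was sequenced from 2 magnetically sorted fractions of the hippocampus of C57Bl6/J mice, an astrocyte-enriched fraction (ACSA-2) and a microglia-enriched fraction (CD11b), with 3 libraries for each vector in each fraction. Mice were injected on both sides of the CA1 area at 2 months of age and studied 2 months later. Controls received AAV2/9-GfaABC1D-Bglob-GFP-WPRE (AAV-GFP) and the others AAV2/9_GfaABC1D-Bglob-A2AR-WPRE (AAV-A2A), so that every mouse carried a vector and none was left without injection. The GfaABC1D promoter drives expression in astrocytes, and CD11b beads were applied to the cells that the ACSA-2 beads had left behind. Libraries are named here by vector and the number in their label, such as GFP-2328. The labels do not say whether a library came from 1 animal or from pooled animals, nor whether both fractions came from the same mice, so p-values measure the spread between these libraries.

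Adult haemoglobin is built from a pair of alpha and a pair of beta globin chains, each holding a haem group, and globin mRNA is made in great excess by erythroid precursors and persists in reticulocytes, the youngest red cells of the blood. Mature red cells have no nucleus and make no new RNA. In brain tissue taken without flushing the vessels, globin reads are commonly read as blood left in the sample, although low globin expression has also been described in brain cells. The hippocampi sorted here were dissected after cervical dislocation.

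The members of each globin pair are near copies, which limits what a short read can tell apart. Of 441 coding bases, Hbb-bs and Hbb-bt differed at 1, and of 426 coding bases, Hba-a1 and Hba-a2 also differed at 1, in the GENCODE annotation of GRCm38. The stretches around that base are shown with the differing base in capitals, coding bases 397 to 437 of the beta pair and 361 to 401 of the alpha pair, counted from the first base of the start codon.
Hbb-bs: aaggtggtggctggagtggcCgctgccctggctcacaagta
Hbb-bt: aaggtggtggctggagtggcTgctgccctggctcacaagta
Hba-a1: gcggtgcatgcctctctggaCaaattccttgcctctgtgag
Hba-a2: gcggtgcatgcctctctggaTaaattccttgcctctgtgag

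Only reads that aligned to 1 place and 1 gene were counted, so most of the coding sequence of these 4 genes could not contribute. Of all stretches of 50 bases, the read length, in the transcripts of each gene, 46.8% of Hbb-bs, 41.7% of Hbb-bt, 27.7% of Hba-a1 and 10.7% of Hba-a2 were found in no other gene. The split between the copies of a pair therefore rests on the reads that could be told apart. The sum of a pair likewise leaves out its shared reads, more so for the alpha than for the beta globins. The share was 100% for Bpgm and for Slc4a1 and 88.5% for Alas2, whose other stretches lie mostly opposite Apex2 (263 of them), and no strand setting of the counting was given.

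The promoters of the pairs differ in another way, with 97.6% identity over 250 bases before the start for the alpha pair and 69.3% for the beta pair (RefSeq starts, GRCm38.p6). The 30 bases around the CCAAT box, a short promoter element of many genes, are shown for the 4 globins. Bpgm held CCAAT as well and Alas2 did not, and any part of these letters in the levels was not tested. Capitals mark matches to CCAAT or CACACCC on either strand, and in Hbb-bt the CCAAT matches of both strands lie end to end.
Hbb-bs, chr7:103827995-103828024, minus strand: gagcCACACCCtggtaagggCCAATctgct
Hbb-bt, chr7:103813989-103814018, minus strand: gggtaacaccctggcATTGGCCAATctgct
Hba-a1, chr11:32283564-32283593, plus strand: gtagagcaagcacaaaccagCCAATgagaa
Hba-a2, chr11:32296381-32296410, plus strand: gtagagcaagcacaaaccagCCAATgagaa

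CCAAT is found on either strand in 33.9% of 32851 RefSeq promoters of the same 250 bases, and CACACCC, the letters read by Krüppel-like factors in the beta globin promoter, in 6.93%. Of the 4 globins, Hbb-bs alone held CACACCC in this window. The letters CATATAA stood at 31 bases before the start in Hbb-bs, at 29 in Hba-a1 and at 32 in Hba-a2, and in 2.12% of all promoters, and Hbb-bt had TATAAA at 28 (12.4% of promoters). RefSeq and GENCODE place the starts of several of these genes differently, so that parts of these windows lie within GENCODE transcripts. A match of letters is a description and not a site of binding.

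Library depth was 33937067 to 49217553 counts on genes in the ACSA-2 fraction and 36098295 to 53206974 in the CD11b fraction. Adora2a, the gene the vector carries, was at 22.7 to 25.7 CPM (counts scaled to 1000000 counts on genes in each library) in ACSA-2 AAV-GFP libraries and at 681 to 867 CPM in ACSA-2 AAV-A2A libraries. In the CD11b fraction it was at 4.41 to 7.59 CPM and 15.6 to 42.4 CPM. The CD11b libraries GFP-2328, GFP-2329 and A2A-2347 stood apart by choroid plexus RNA, as their 6 choroid plexus markers summed to 122030, 94144 and 62821 CPM, against 24.5 to 131 CPM in the others. Their 6 microglial markers summed to 7280, 14033 and 20646 CPM, against 42241 to 43930 CPM in the others, so that they held less of the labelled cell type.

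Adult globins made up 0.00570 to 0.635% of the counts of a library. In CD11b AAV-GFP libraries the share was 0.2504% in GFP-2328, 0.635% in GFP-2329 and 0.0882% in GFP-2331. In CD11b AAV-A2A libraries it was 0.0191% in A2A-2343, 0.0155% in A2A-2344 and 0.00570% in A2A-2347 (95% Wilson interval 0.00550 to 0.00590%). Every CD11b AAV-A2A library was lower than every CD11b AAV-GFP library, and the lowest AAV-GFP share was 4.63 times the highest AAV-A2A share. Wilson intervals cover counting error only, since reads amplified by PCR without molecular identifiers are not independent molecules. Fewer red cells or reticulocytes in a library and less globin RNA per cell cannot be told apart in bulk RNA.

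**Figure D1:**
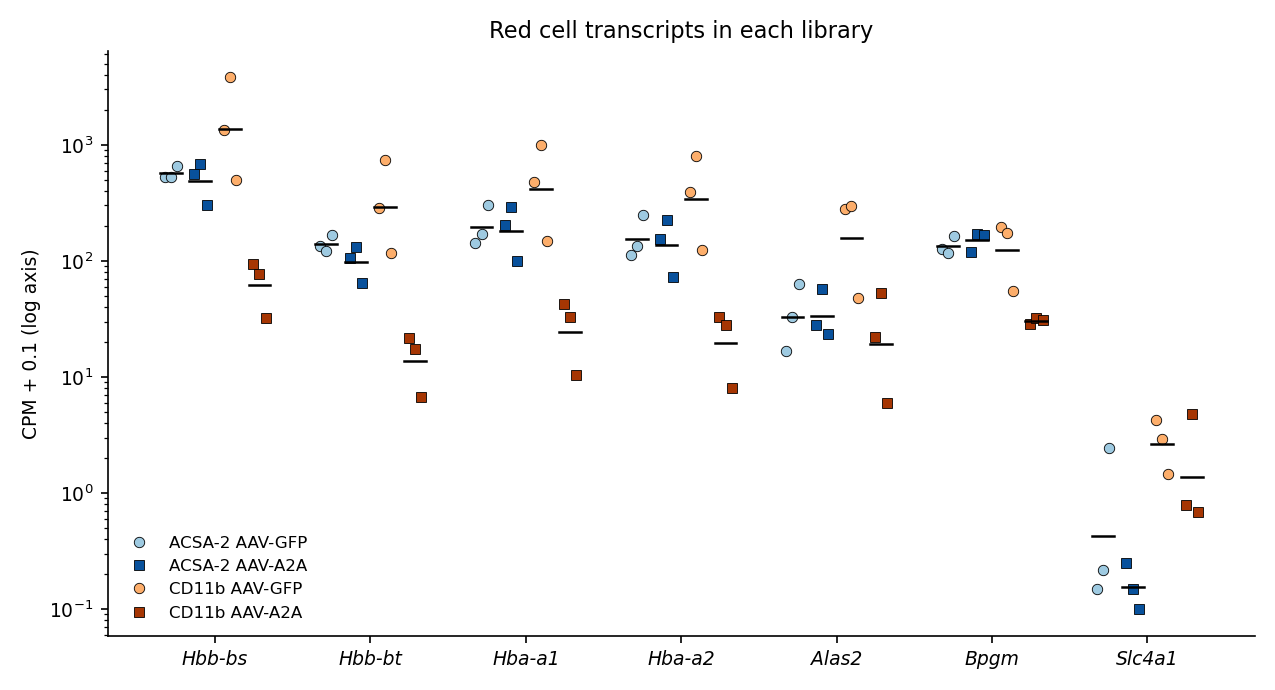
CPM + 0.1 of the 7 genes on a log axis, 1 point a library (circles AAV-GFP, squares AAV-A2A; n = 3 a group), with bars at the mean of the log values. The CD11b AAV-A2A points of the 4 globins lie below all other points of the same gene, while the ACSA-2 groups overlap.

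The beta globins gave most of the globin counts, which hold only reads placed on 1 gene. Hbb-bs stood at 1352, 3811 and 493 CPM in CD11b libraries GFP-2328, GFP-2329 and GFP-2331. It stood at 94.2, 77.1 and 32.0 CPM in A2A-2343, A2A-2344 and A2A-2347. Hbb-bs was thus lower in all 3 AAV-A2A libraries, with a log2 fold change of -4.60 (SE 0.92) in the edgeR fit of all genes, a 24.2-fold lower level. Hbb-bt was at 286, 743 and 116 CPM and at 21.5, 17.2 and 6.67 CPM in the same order of libraries. Its log2 fold change was -4.46 (SE 0.85), and its groups did not overlap.

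The alpha globins behaved alike. Hba-a1 was at 478, 997 and 149 CPM in the AAV-GFP libraries and at 42.0, 32.5 and 10.4 CPM in the AAV-A2A libraries. Hba-a2 was at 389, 798 and 124 CPM and at 32.8, 28.0 and 7.93 CPM. Both had a log2 fold change of -4.05 (SE 0.88 and 0.87), a 16.6-fold lower level. Among 16949 genes tested in the CD11b fraction, the 4 globins stood at ranks 22, 27, 44 and 46 from the lowest log2 fold change. The globins were chosen for their fall in this contrast, so nothing is read from these ranks.

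Alas2 encodes the erythroid form of the first enzyme of haem synthesis. It was at 281, 294 and 47.3 CPM in the CD11b AAV-GFP libraries and at 22.1, 52.7 and 5.88 CPM in the AAV-A2A libraries. Unlike the globins its groups overlapped, since A2A-2344 was above GFP-2331, and its log2 fold change was -2.76 (SE 0.94).

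Bpgm encodes bisphosphoglycerate mutase, which makes the 2,3-bisphosphoglycerate that lowers the oxygen affinity of haemoglobin. It was at 197, 175 and 54.8 CPM in the AAV-GFP libraries and at 28.5, 32.3 and 30.7 CPM in the AAV-A2A libraries. The AAV-A2A libraries lay close together and below all AAV-GFP libraries, with a log2 fold change of -2.05 (SE 0.45).

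Slc4a1 encodes band 3, the anion exchanger of the red cell membrane. It was at 4.17, 2.79 and 1.36 CPM in the AAV-GFP libraries and at 0.695, 4.65 and 0.583 CPM in the AAV-A2A libraries. The highest library was A2A-2344, the groups overlapped, and the log2 fold change of -0.35 (SE 0.93) was smaller than its error, so the fall for which the genes were chosen was not seen in Slc4a1. In all, 5 of the 7 genes were lower in every CD11b AAV-A2A library than in every AAV-GFP library, a pattern that 13.4% of all tested genes had. As these genes were picked for this fall, nothing is read from that count.

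Libraries rich in choroid plexus RNA fell in both groups. By mean CPM the adult globins, Alas2 and Bpgm were lower with AAV-A2A with and without these libraries, whereas Slc4a1 was not lower without them. The median log2 ratio of the chosen genes was -4.25 with all CD11b libraries, -1.997 without the choroid plexus-rich libraries and -6.14 among those alone. The split was made after seeing the data, in the contrast that chose the genes. The part of choroid plexus RNA in the difference was not tested. Without GFP-2328, GFP-2329 and A2A-2347, Hbb-bs was 5.75-fold lower and Hba-a1 3.99-fold lower in A2A-2343 and A2A-2344 than in GFP-2331, by the ratio of mean CPM. Alas2 was then 1.26-fold lower and Bpgm 1.80-fold lower, and Slc4a1 was higher in the AAV-A2A libraries (log2 ratio 0.93). Among the choroid plexus-rich libraries alone, Hbb-bs was 80.4-fold lower and Bpgm 6.04-fold lower in A2A-2347 than in the mean of GFP-2328 and GFP-2329. Both ratios rest on 1 library on a side and have no test.

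Several markers of other cell types were also lower with AAV-A2A in the CD11b libraries, though none was called by edgeR, nor was any of all 16949 tested genes. The 6 endothelial markers summed to 1499, 2418 and 686 CPM in GFP-2328, GFP-2329 and GFP-2331 and to 408, 498 and 568 CPM in A2A-2343, A2A-2344 and A2A-2347, so that these groups did not overlap either. Cldn5, the tight junction protein of brain endothelium, was at 328, 638 and 200 CPM and at 104, 115 and 86.8 CPM (log2 fold change -1.77, SE 0.47, edgeR adjusted p = 0.28). All 6 endothelial markers were detected in every CD11b library and had a median log2 fold change of -1.81. Pecam1, at 45.5, 79.7 and 45.8 CPM and at 35.5, 75.2 and 53.3 CPM, overlapped (log2 fold change 0.06). Slco1a4 overlapped as well, at 201, 199 and 41.7 CPM and at 57.7, 89.4 and 160 CPM (log2 fold change -0.38). The 4 ependymal markers had a median of -2.30, with 0 of 4 above 0, and Tmem212 was at 34.7, 76.9 and 44.6 CPM and at 13.7, 5.49 and 5.94 CPM. The 5 neuronal markers had a median of -2.37, with 1 of 5 above 0, and Snap25 was at 14.5, 28.9 and 3.72 CPM and at 0.790, 0.859 and 0.902 CPM. The sums of the ependymal and of the neuronal markers overlapped between the vectors, at 124 to 1735 against 22.5 to 598 CPM and at 105 to 223 against 72.8 to 117 CPM. Other markers went the other way. The 4 border macrophage markers summed to 41.1, 35.4 and 142 CPM with AAV-GFP and to 146, 143 and 241 CPM with AAV-A2A. These groups did not overlap, and the median log2 fold change was 1.56, with 3 of 4 above 0. All 6 microglial and all 4 monocyte markers were above 0, with medians of 0.61 and 0.38, while their sums overlapped. Pecam1, Slco1a4, Tmem212 and Snap25 were named after their values were seen. Mitochondrial genes took 1.69 and 1.15% of the counts in GFP-2328 and GFP-2329 and 0.180 to 0.216% in the others. The part of these in the globin difference was not tested.

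The summed markers of neutrophils, platelets and B cells overlapped between the vectors in the CD11b libraries. The 6 neutrophil markers summed to 164, 140 and 499 CPM in GFP-2328, GFP-2329 and GFP-2331 and to 456, 183 and 73.7 CPM in A2A-2343, A2A-2344 and A2A-2347. GFP-2331 and A2A-2343, with the most neutrophil RNA, lay in the middle of the globin range. The 6 platelet markers ranged from 35.7 to 98.3 CPM with AAV-GFP and from 34.8 to 76.1 CPM with AAV-A2A, and Gp1bb was at 0 in all libraries of both groups but A2A-2344. Within that list Ppbp, a platelet chemokine named after its values were seen, had 83, 71 and 13 counts with AAV-GFP and 0, 2 and 0 counts with AAV-A2A, without overlap. The 4 B cell markers ranged from 8.14 to 62.3 and from 18.1 to 43.2 CPM. The part of these cells in the globin difference was not tested.

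**Figure D2:**
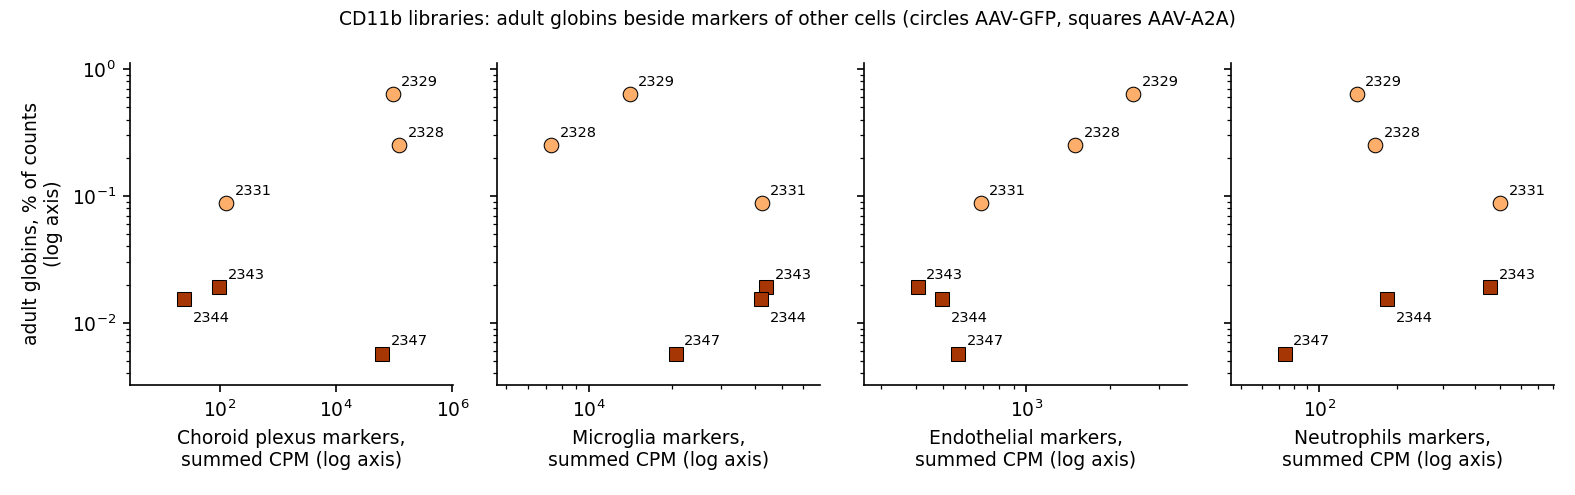
Adult globins as percent of counts against the summed CPM of choroid plexus, microglial, endothelial and neutrophil markers in the 6 CD11b libraries, all on log axes, with the library number beside each point. Choroid plexus-rich libraries include the highest (GFP-2329) and the lowest (A2A-2347) globin share, and the endothelial sum spans 686 to 2418 CPM with AAV-GFP and 408 to 568 CPM with AAV-A2A.

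The makeup of the globin counts changed little while their share of a library went from 0.00570 to 0.635%. Beta globins were 60.0 to 72.1% of adult globin counts over the 12 libraries, Hbb-bs was 79.8 to 83.9% of the beta globin counts, and Hba-a1 was 53.8 to 57.8% of the alpha globin counts. In A2A-2347, with 3031 globin counts, and in GFP-2329, with 249911, Hbb-bs was 82.8 and 83.7% of the beta counts. Between the fractions none of these ratios differed beyond the libraries (exact two-sided permutation tests, 6 against 6, p = 0.11 to 0.88). In the ACSA-2 fraction, Hbb-bs was 80.4 ± 0.82% (SD, n = 3) of beta counts with AAV-GFP and 83.3 ± 0.84% (SD, n = 3) with AAV-A2A. These groups did not overlap, and the exact two-sided permutation p was 0.10, the smallest that 3 against 3 can give (Benjamini-Hochberg adjusted over 6 tests, p = 0.23). The Hba-a1 share of alpha counts, 55.6 ± 0.89% and 57.1 ± 0.70% (SD, n = 3 each), likewise did not overlap, with the same exact p. As the copies of a pair share most of their sequence, these shares are of the reads that could be told apart.

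**Figure D3:**
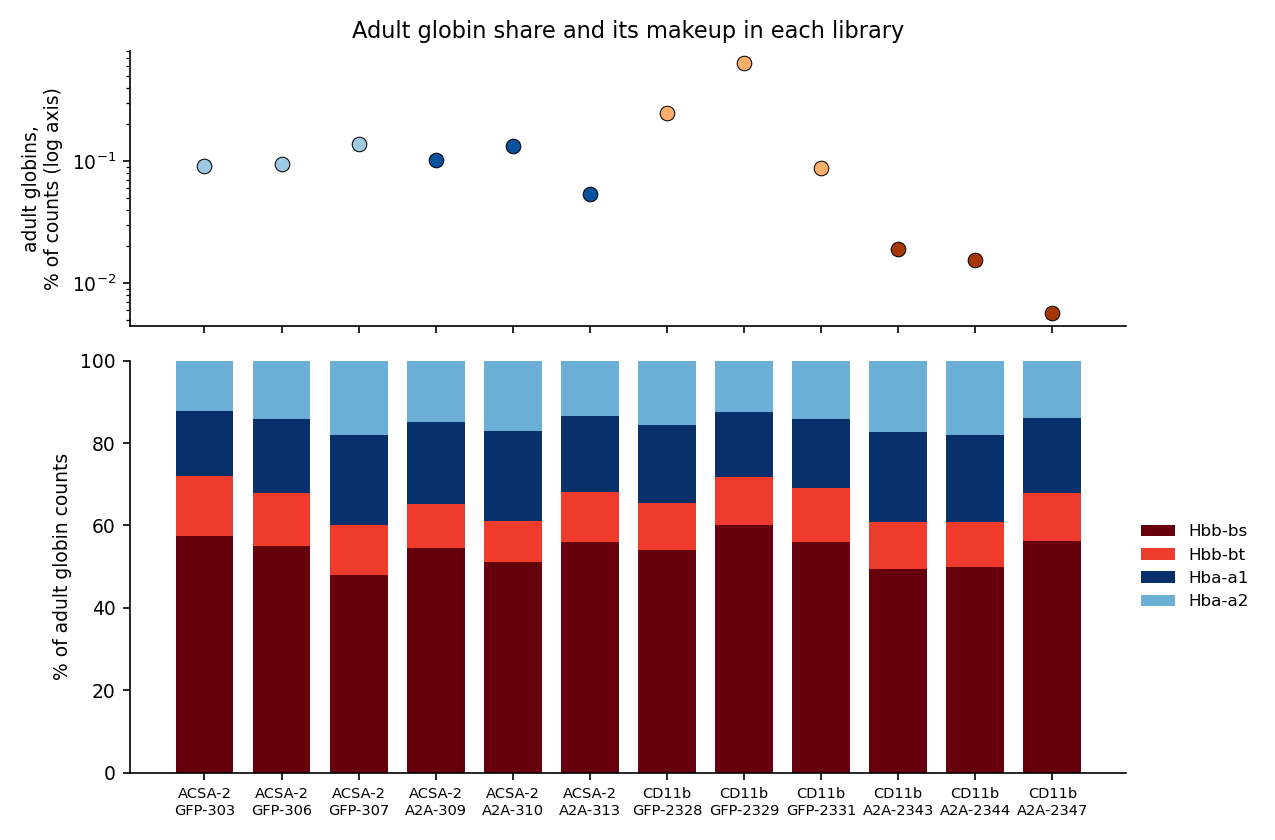
Above, adult globins as percent of counts (log axis) in each of the 12 libraries; below, the share of each globin gene in the adult globin counts. The total ranges from 0.00570 to 0.635% while the beta globins (reds) stay between 60.0 and 72.1% of the bar.

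The other red cell genes did not keep a fixed ratio to the globins. For each 1000 globin counts there were 18.2 to 45.9 counts of Alas2 in the ACSA-2 libraries, 46.3 to 112 in the CD11b AAV-GFP libraries and 103 to 341 in the CD11b AAV-A2A libraries, with A2A-2344 the highest. Bpgm had 27.6 counts for each 1000 globin counts in GFP-2329, where globins were highest, and 539 in A2A-2347, where they were lowest. Slc4a1 went from 0 in ACSA-2 library A2A-313 to 30.1 in A2A-2344.

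Per length, by reads placed on 1 gene, Hbb-bs had the highest mean in every group. In CD11b AAV-GFP libraries Hbb-bs was at 2455 ± 2242 RPKM (CPM divided by the exon length in kilobases, mean ± SD, n = 3), Hba-a1 at 667 ± 527, Hba-a2 at 655 ± 509 and Hbb-bt at 543 ± 462. Their spread between libraries was close to their mean, but the genes moved together. Within each of these libraries Hbb-bt, at 406, 1058 and 165 RPKM in GFP-2328, GFP-2329 and GFP-2331, was below both alpha globins. Hba-a1 was at 588, 1228 and 183 RPKM and Hba-a2 at 583, 1197 and 186 RPKM. Alas2 followed at 86.3 ± 57.8 RPKM, Bpgm at 39.6 ± 21.3 and Slc4a1 at 0.567 ± 0.287. In CD11b AAV-A2A libraries Hbb-bs ranged from 41.7 to 123 RPKM, Hba-a1 from 12.8 to 51.7, Hba-a2 from 11.9 to 49.2, Hbb-bt from 9.49 to 30.6, Alas2 from 2.45 to 21.9, Bpgm from 7.94 to 9.00 and Slc4a1 from 0.119 to 0.952. In the ACSA-2 libraries of both vectors Hbb-bs ranged from 393 to 886 RPKM, Hba-a1 from 123 to 370, Hba-a2 from 109 to 375, Hbb-bt from 91.8 to 235, Bpgm from 32.3 to 47.4 and Alas2 from 6.95 to 26.3, so that Bpgm stood above Alas2 there. From Hba-a1 to Bpgm the range of each gene over the CD11b AAV-A2A libraries overlapped those of its neighbours in that order. Within each of these libraries Hba-a2 was nonetheless above Hbb-bt, and Hbb-bt above Alas2. These levels count only reads placed on 1 gene, over the whole exon length, and so understate the globins most. The understatement differs among the globins, as 46.8% of the 50-base stretches of Hbb-bs and 10.7% of those of Hba-a2 were unique. Their order may thus follow from the reads that could be placed, which was not tested.

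The ACSA-2 libraries were not used to choose the genes, and there the vectors were compared with a test. Hbb-bs was at 528, 524 and 661 CPM in ACSA-2 libraries GFP-303, GFP-306 and GFP-307. It was at 557, 681 and 302 CPM in A2A-309, A2A-310 and A2A-313. A2A-313 was lowest and A2A-310 highest, so the AAV-A2A range enclosed that of AAV-GFP. All 7 genes overlapped between the vectors in this fraction, where 19.3% of tested genes had no overlap. Of the 6 genes that passed the filter on low counts, 0 were called between the vectors (edgeR, adjusted p under 0.05 and log2 fold change beyond 0.32), where 3.36% of all 16451 tested genes were called. DESeq2 and limma-voom also called 0 of the genes, beside 6.85% and 3.6% of all genes, and 0 of them had an unadjusted edgeR p under 0.05. The log2 fold change of Hbb-bs was -0.19 (SE 0.24, 95% interval -0.74 to 0.36, edgeR adjusted p = 0.85).

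Hbb-bt came nearest to a difference in the ACSA-2 fraction. It was at 133, 120 and 165 CPM with AAV-GFP and at 107, 132 and 64.5 CPM with AAV-A2A, with overlap. Its log2 fold change was -0.50 (SE 0.23, 95% interval -1.02 to 0.03, edgeR adjusted p = 0.41). Hba-a1 was at 144, 172 and 301 CPM and at 203, 293 and 99.7 CPM, a log2 difference of -0.08 (95% interval -0.87 to 0.71). The interval of Hba-a2 was -1.01 to 0.67.

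Alas2 and Bpgm did not separate the vectors in the ACSA-2 libraries either. Alas2 was at 16.7, 33.1 and 63.2 CPM with AAV-GFP and at 28.1, 57.2 and 23.3 CPM with AAV-A2A (log2 difference -0.07, 95% interval -1.10 to 0.96). Bpgm was at 127, 116 and 163 CPM and at 119, 170 and 166 CPM (log2 difference 0.16, 95% interval -0.32 to 0.65). Bpgm was the steadiest of the 7 genes across the ACSA-2 libraries, with a highest value 1.47 times the lowest. Slc4a1 had 2, 4 and 88 counts with AAV-GFP and 5, 2 and 0 with AAV-A2A, in the same order, and the 0 counts of A2A-313 allow up to 0.0610 CPM. It did not pass the filter and was seen mainly in GFP-307, which also had the highest globin share of the ACSA-2 libraries.

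The adult globin share of the ACSA-2 libraries was 0.108 ± 0.0257% with AAV-GFP and 0.0963 ± 0.03995% with AAV-A2A (SD, n = 3 each; exact two-sided permutation p = 0.90, smallest possible 0.10). The difference was smaller than the spread between libraries, and its sign turned when GFP-307 (0.00296 percentage points) or A2A-313 (0.00941 percentage points) was left out.

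**Figure D4:**
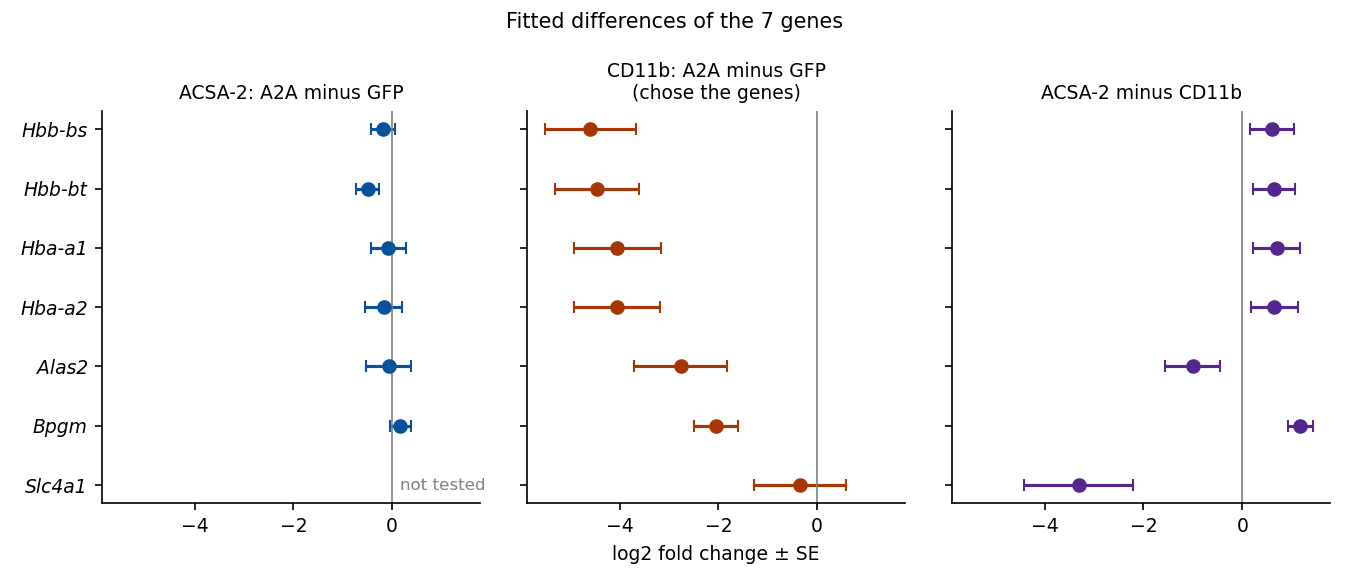
Log2 fold changes with SE from the edgeR fits of all genes for the 7 genes, in the ACSA-2 fraction, in the CD11b fraction (the contrast that chose the genes) and between the fractions. Points of the ACSA-2 fraction lie between -0.50 and 0.16, those of the CD11b fraction between -4.60 and -0.35, and those between the fractions between -3.32 and 1.17.

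The comparison between the fractions, averaged over the vectors, includes the CD11b AAV-A2A libraries whose low values chose the genes, so it is not independent of that choice. Its calls and p-values for the 7 genes are therefore given as a description, and nothing is concluded from them. In it 2 of 7 genes were called, Bpgm higher and Slc4a1 lower in the ACSA-2 libraries, where 54.1% of 18602 genes tested were called, 24.6% higher and 29.4% lower in the ACSA-2 fraction. The log2 difference, ACSA-2 minus CD11b, was 1.17 for Bpgm (SE 0.25, edgeR adjusted p = 0.0023) and -3.32 for Slc4a1 (SE 1.11, edgeR adjusted p = 0.025). The call of Slc4a1 was lost without A2A-310 (-3.24, adjusted p = 0.056) and without A2A-2344 (-2.50, adjusted p = 0.080). Bpgm ranged from 116 to 170 CPM in the ACSA-2 libraries, and from 28.5 to 197 CPM in the CD11b libraries, where GFP-2328 and GFP-2329 exceeded every ACSA-2 library. With AAV-GFP alone the difference of Bpgm was 0.11 (edgeR adjusted p = 0.87) and 0 of the 7 genes were called, against 6 with AAV-A2A alone. Fraction, sort order and count table go together and cannot be told apart.

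The globins had log2 differences of 0.60 to 0.70 in the same comparison (edgeR adjusted p = 0.21 to 0.27), likewise given as a description. The interval for Hbb-bs was -0.37 to 1.57. These values rest on the vector: with AAV-GFP alone the sign turned, to -1.55 for Hbb-bs, -1.28 for Hbb-bt, -1.23 for Hba-a1 and -1.24 for Hba-a2. They also moved with GFP-2329, the library richest in globins, without which Hbb-bs was at 1.1 and Hbb-bt at 1.09 and 4 of the 7 genes were called. Alas2 was at -1.002 (SE 0.56, edgeR adjusted p = 0.15), at -1.25 without A2A-2347 and at 0.335 with AAV-A2A alone. The globin share was 0.102 ± 0.0307% in the ACSA-2 libraries and 0.169 ± 0.246% in the CD11b libraries (SD, n = 6 each; exact two-sided permutation p = 0.72). The choice of genes affects this comparison as well.

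Further red cell genes were followed through 6 lists of 85 genes outside the 7, chosen with earlier results of these data known. In the CD11b libraries 0 of the 65 tested genes of these lists were called by edgeR, as were 0 of all 16949 genes, of which 2704 had an unadjusted p under 0.05, and limma-voom also called 0. DESeq2 called 2, where it called 2.46% of 18494 genes. The median log2 fold change of the 65 genes was -0.34, against -0.05 for all tested genes, and 12 of them (18.5%) were lower in every AAV-A2A library, beside 13.4% of all genes.

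The theta globins Hbq1a and Hbq1b, named after their values were seen, had 12, 33 and 3 counts and 29, 50 and 2 counts in the CD11b libraries with AAV-GFP, and 0, 0 and 0 and 0, 4 and 0 counts with AAV-A2A. The embryonic globins Hbb-y, Hbb-bh1, Hbb-bh2 and Hba-x had at most 16 counts in any library where they were listed, and no gene of the list of embryonic and theta globins passed the filter in the CD11b fraction.

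By role the lists were mixed in the CD11b fraction. Of 12 tested genes of the erythroid membrane 3 had a log2 fold change above 0, with a median of -0.81. The list holds genes of other cells as well: Aqp1, the water channel of red cells and of choroid plexus, was at 107, 70.7 and 0.525 CPM with AAV-GFP and at 0.144, 0 and 125 CPM with AAV-A2A, high in the same 3 libraries as the choroid plexus markers. The median was -0.33 for 12 genes of haem synthesis, -0.04 for 18 of erythroid transcription and maturation, -0.58 for 10 red cell enzymes and -0.16 for 13 genes of haem and iron handling. Tent5c and Zfpm1 went the other way, and Zfpm1, the partner of GATA factors, was at 11.5, 13.1 and 21.8 CPM with AAV-GFP and at 27.6, 81.5 and 41.7 CPM with AAV-A2A. None of these was called by edgeR.

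In the ACSA-2 libraries 1 of 64 tested list genes was called, where 3.36% of all tested genes were. This was Lrp1, a receptor that takes up haemopexin-bound haem among many other ligands, at 804, 733 and 585 CPM with AAV-GFP and 338, 239 and 153 CPM with AAV-A2A (log2 fold change -1.58, SE 0.26, edgeR adjusted p = 0.0092). The call was lost in the joint fit of all 12 libraries (-1.61, edgeR adjusted p = 0.21), without GFP-306 (-1.56, edgeR adjusted p = 0.052) and without A2A-310 (-1.56, edgeR adjusted p = 0.056). The median of the 64 genes was 0.05, and that of all tested genes 0.02.

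Between the fractions, 41 of 69 tested list genes were called, 13 higher and 28 lower in the ACSA-2 fraction, beside 54.1% of all genes. Prdx2, the peroxiredoxin of red cells and of many other cells, was higher in the ACSA-2 libraries (log2 difference 2.20, SE 0.28, edgeR adjusted p = 7.3e-05), as were Glrx5 and Blvrb. Tent5c, Epb41, Tal1 and the iron exporter Slc40a1 were lower, by -5.14, -2.61, -4.60 and -2.95 on the log2 scale.

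**Figure D5:**
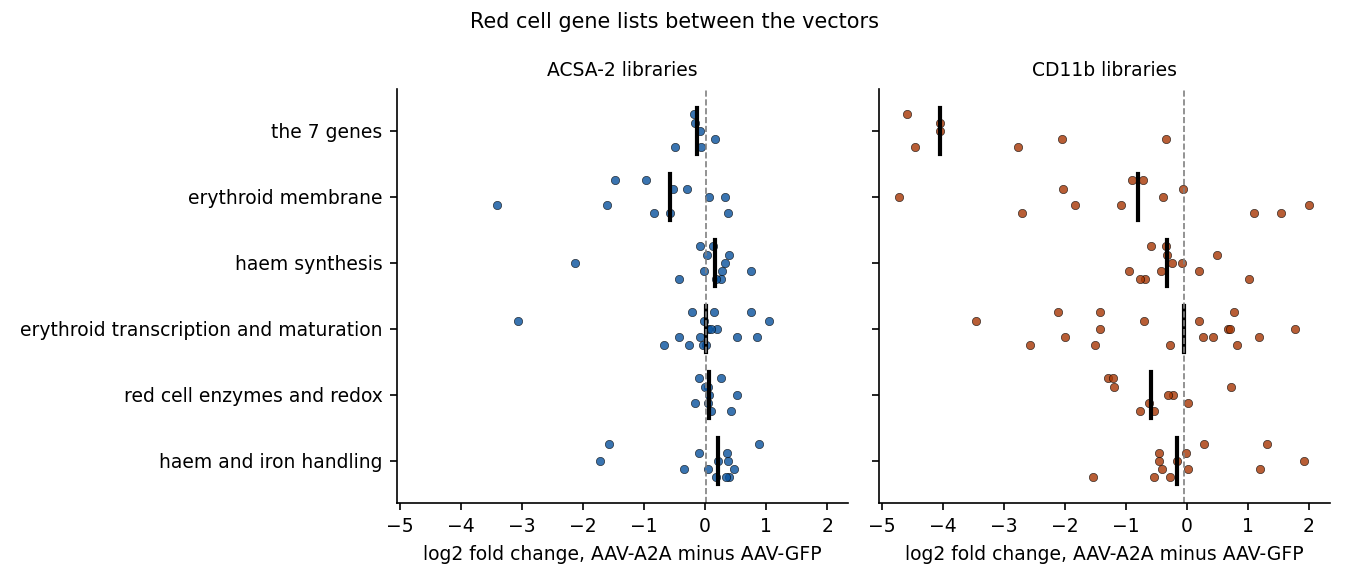
Log2 fold changes between the vectors (AAV-A2A minus AAV-GFP) of the 7 genes and of 5 red cell gene lists, 1 point a tested gene, with a black bar at the median of each list and a dashed line at the median of all tested genes. In the CD11b libraries the 7 genes have a median of -4.05 and the lists medians from -0.81 to -0.04; in the ACSA-2 libraries the medians lie between -0.58 and 0.22.

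Last, the genes whose levels ran most like the 4 adult globins were listed by Pearson r of log2 CPM with their mean, among genes with a mean of at least 5 CPM. Over the 6 CD11b libraries the first 10 genes outside the 7 were Ube2l6, Isg15, Use1, Polb, Znrd1as, Gkn3, Sertad1, Derl3, Vamp5 and Anks1b, with r from 0.984 to 0.991. Ube2l6, which encodes a ubiquitin-conjugating enzyme, is also in the list of erythroid transcription and maturation. Ube2l6 was at 82.4, 93.0 and 55.6 CPM with AAV-GFP and at 30.9, 24.9 and 17.3 CPM with AAV-A2A. In that fraction 2.83% of 11183 genes had an r over 0.9, and Alas2 and Bpgm had r of 0.93 each.

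Over the 6 ACSA-2 libraries the first 10 were Cdkn1c, Asgr1, F11r, Cxcl12, Ppp6r2, Vwa5b1, Ttll9, Cad, Cnpy4 and Pde1b, with r from 0.959 to 0.982. No gene was on both lists. Alas2 had an r of 0.76 and Bpgm of 0.089 there, and 0.724% of 10767 genes had an r over 0.9. The points of each correlation share a library with its depth and makeup, and with 6 points among many genes such values are a description.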

How the data were processed

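The deposited values are raw read counts per Ensembl gene. Per the labels and methods, the authors made cDNA from low-input polyA RNA, trimmed reads with cutadapt 1.10, aligned them to mm10 with STAR 2.5.3 and counted unique alignments falling on 1 gene with HTSeq 0.6.1p1. Groups came from sample labels. The 7 genes and all lists were chosen with earlier results of these data known. Genes were named if they were among the 7, passed a test or reached a mean of 5 CPM in a list, or were among the 10 most like the globins; exceptions are stated.

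From the counts, CPM, RPKM over GENCODE exon length, and edgeR 4.0.16 quasi-likelihood tests (TMM, filterByExpr, Benjamini-Hochberg adjustment over all tested genes; R 4.3.3) were computed, after the code was tested on simulated data. Calls needed an adjusted p under 0.05 and a log2 fold change beyond 0.32. Vectors were compared within a fraction and fractions across all 12 libraries. Single values had exact two-sided permutation tests (scipy 1.17.1). Intervals of fold changes used the degrees of freedom of the fit. Identifiers outside the annotation held 0.00469 to 0.0956% of counts. Alternatives were DESeq2 1.42.0, limma-voom (limma 3.58.1), other scalings and filters, joint fits, summed paralogs and each library left out. Unnamed empty columns were not used. No replicate pair agreed within sampling noise. Results for some list genes are not reported here.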

Additional observations from a re-analysis of the deposited data

How the results depend on the processing

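No paired analysis was possible because the labels give the groups no shared replicate numbers. No alternative called any of the 7 genes between the vectors in the ACSA-2 libraries, and their median log2 fold change in the CD11b libraries was -4.47 to -3.28 when 1 library was left out. By ratio of mean CPM, an alternative chosen after seeing the data, that median was -1.997 without the 3 choroid plexus-rich libraries and -6.14 among them alone. The number of the 7 genes called between the fractions was 1 with at least 10 counts in every library, 0 with AAV-GFP libraries alone, 6 with AAV-A2A libraries alone and 1 to 4 when 1 library was left out (1 without A2A-310 or A2A-2344, 4 without GFP-2329); the split by vector uses the libraries that chose the genes. With AAV-GFP alone the difference between the fractions was -1.55 for Hbb-bs, -1.28 for Hbb-bt, -1.23 for Hba-a1 and -1.24 for Hba-a2, and with AAV-A2A alone it was 0.335 for Alas2. List genes called in the ACSA-2 libraries were 6 with DESeq2, where 6.85% of its genes were called, 2 with at least 10 counts in every library, 0 in the joint fit and 0 to 3 with 1 library left out (3 without GFP-303, 0 without GFP-306 or A2A-310). They were 2 in the CD11b libraries with DESeq2, and 19 between the fractions with AAV-GFP alone. The globin share difference between the fractions turned to 0.87 on the log2 scale, added after seeing the data, and was -0.0994 to 0.0265 percentage points with 1 library left out (above 0 without GFP-2329), and -0.0302 to 0.00941 in the ACSA-2 libraries between the vectors. With 1 library left out, the ACSA-2 log2 fold change was -0.43 to 0.035 for Hbb-bs, -0.45 to 0.26 for Hba-a1, -0.57 to 0.22 for Hba-a2 and -0.53 to 0.49 for Alas2 (0.0335 with limma-voom), and in the CD11b libraries it was -1.93 to 0.11 for Slc4a1. The cause of these changes was not tested. Scaling by library size alone moved the median of all CD11b genes from -0.05 to -0.17.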
